A study of Saccharomyces cerevisiae with 6 samples.

Results

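The 32 genes described here encode most of the aminoacyl-tRNA synthetases of budding yeast, 19 that act in the cytosol and 13 that act only in mitochondria. They were chosen by gene symbol, taking the brightest probe set that names 1 gene, and all 32 have exactly 1 such probe set, out of 5656 genes named by single-gene probe sets on the array. Total RNA was hybridised to 6 oligonucleotide arrays in 1 colour, and came from Saccharomyces cerevisiae W303-1a, a common laboratory background. Wild type, a GPR1 deletion mutant and a GPA2 deletion mutant had 2 arrays each, and the mutants are called gpr1 and gpa2 cells below. GPR1 encodes a glucose-sensing receptor at the plasma membrane, and GPA2 encodes the G protein alpha subunit that acts with it upstream of cAMP and protein kinase A. No other allele or agent appears in the labels, and the sources used here do not state the growth conditions, how the deletions were made or whether a group's arrays stem from separate cultures or clones. One label, that of gpa2 array 2, places its array in the second experiment. The p-values measure the spread between these arrays, which may be technical.

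Each synthetase joins 1 amino acid to its matching tRNA, and the charged tRNAs then feed the ribosome. Yeast keeps a full set for cytosolic translation and a largely separate, nuclear-encoded set, imported into the organelle, for the few proteins that mitochondria make themselves. Most of these proteins are core subunits of the respiratory chain and ATP synthase. A handful of genes (ALA1, GRS1, HTS1 and VAS1) supply both compartments from a single locus through alternative start sites. Synthetases fall into a pair of unrelated structural classes, I and II, set by the fold of the catalytic domain.

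Each deleted gene was dim where the labels say it is deleted. The deposited intensity of GPR1 was 1086.4 and 1013.9 in wild type but 5.1 and 2.8 in its own deletion, and that of GPA2 was 2410.3 and 1900.3 in wild type but 9.3 and 10.9 in its own deletion. STE2, a receptor made by a cells, read between 1433.4 and 4662.7 on the arrays, and STE3, its counterpart in alpha cells, between 60.6 and 115.4. SAG1, also listed as an alpha-cell gene, was not dim. It read between 251.5 and 691.1, above the median deposited intensity of each array. The median deposited intensity ranged from 225.1 to 562.9 between arrays, so all arrays were quantile normalised, values under the floor of 8.94 were raised to it, and log2 was taken. Every level below is such a log2 intensity unless it is called deposited, and every change is a difference of group means on that scale. All 32 synthetase probe sets were bright enough to be tested. Deposited intensities of the cytosolic genes lay between 140.3 and 20022.7 and those of the mitochondrial genes between 22.6 and 1344. A level is a share of the RNA on the array, so that less transcript per cell and more of all other RNA cannot be told apart.

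The synthetases split by compartment. Mitochondrial synthetase transcripts read higher in both deletions than in wild type, with a median log2 change of 0.32 in gpr1 cells and 0.60 in gpa2 cells (1.24-fold and 1.52-fold), while cytosolic ones read lower, with medians of -0.21 and -0.28. Over all 6956 probe sets tested the medians were -0.0007 and -0.02. Without scaling of the arrays the median of all probe sets was -0.32 and -1.02, the mitochondrial medians were 0.0353 and -0.42 and so lay 0.35 and 0.60 above it, and the cytosolic ones, relative to it, were -0.26 and -0.25. No single synthetase passed the test in any comparison, so the split is a description of the group and not a call on a gene.

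The mean log2 level of the 13 mitochondrial genes was 8.40 and 8.29 in wild type, 8.77 and 8.80 in gpr1 cells, and 9.09 and 8.96 in gpa2 cells. These groups did not overlap, with wild type lowest and gpa2 highest, and the pooled SD between arrays of a group was 0.07. The mean of the 19 cytosolic genes was 12.09 and 11.94 in wild type, 11.89 and 11.84 in gpr1 cells, and 11.87 and 11.77 in gpa2 cells. Both wild-type arrays lay above all mutant arrays, and the deletions overlapped each other (pooled SD 0.08). Taken within each array and relative to its wild-type mean, the mitochondrial minus the cytosolic mean was -0.02 and 0.02 in wild type, 0.55 and 0.63 in gpr1 cells, and 0.89 and 0.86 in gpa2 cells. Arrays of a group lay within 0.08 of each other on this measure, less than the distance between any groups.

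**Figure D1:**
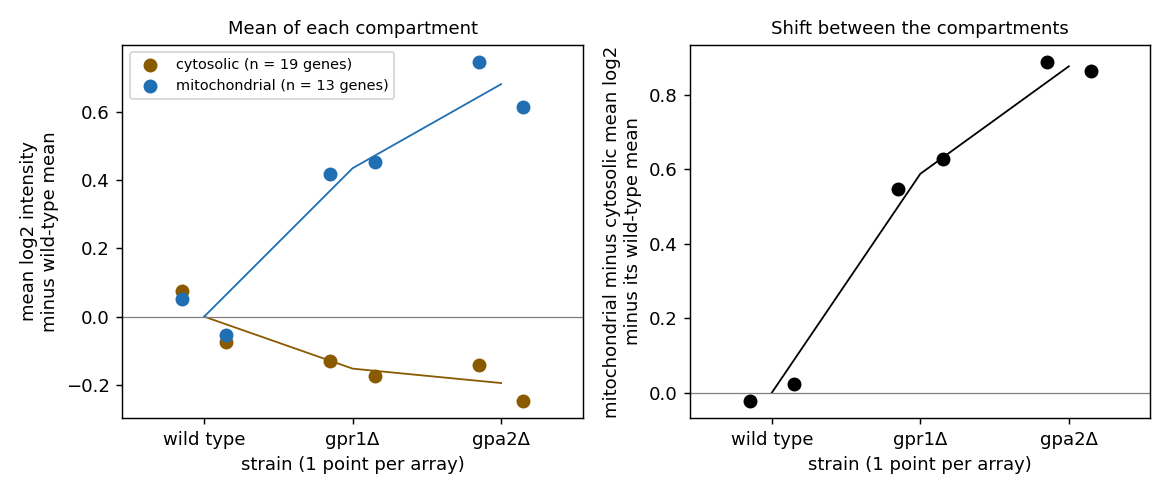
Left, the mean log2 intensity of the cytosolic (brown, 19 genes) and mitochondrial (blue, 13 genes) synthetases on each array, minus the mean of the wild-type arrays; right, the mitochondrial minus the cytosolic mean, also relative to wild type. Points are arrays (2 per strain) and lines join group means; the mitochondrial mean read 0.44 above wild type in gpr1 and 0.68 above in gpa2 cells.

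Probe sets in the brightness range of the mitochondrial genes did not show the same shift. The mitochondrial genes had mean levels between 7.22 and 9.78. The 3085 tested probe sets in that range had a median change of -0.01 in gpr1 and -0.01 in gpa2 cells, with 48.8% and 48.4% above 0. DIA4 and NAM2 alone lie at the lower edge, since the group means of every other mitochondrial gene were 7.95 or higher. A narrower range without these genes was not read. The cytosolic genes had mean levels between 8.04 and 13.81, and the 5015 probe sets there had medians of -0.0034 and -0.03. GRS2 alone sets the lower edge of that range, since the group means of every other cytosolic gene were 9.99 or higher. The range holds most of the 6956 probe sets tested and so does not match the brightness of these other genes. The control ratios of the 3′ over the 5′ end differed between arrays, and not in the same way for each control. For SPT15, a general transcription factor with control probe sets at both ends, the 3′ over 5′ ratio lay between 3.16 and 4.83 on 5 arrays and reached 10.3 on wild-type array 2. For SRB4, a Mediator subunit, wild-type array 2 was the lowest at 1.68 against 2.04 to 2.36. For ACT1, actin, both wild-type arrays (1.26 and 1.29) lay below all mutant arrays. Those stood at 1.35 and 1.53 in gpr1 cells and 1.54 and 1.53 in gpa2 cells. The part of these ratios in the results was not tested, and the difference between the mitochondrial and cytosolic medians without wild-type array 2 was 0.48 in gpr1 and 0.95 in gpa2 cells, against 0.52 and 0.89 with all arrays.

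**Figure D2:**
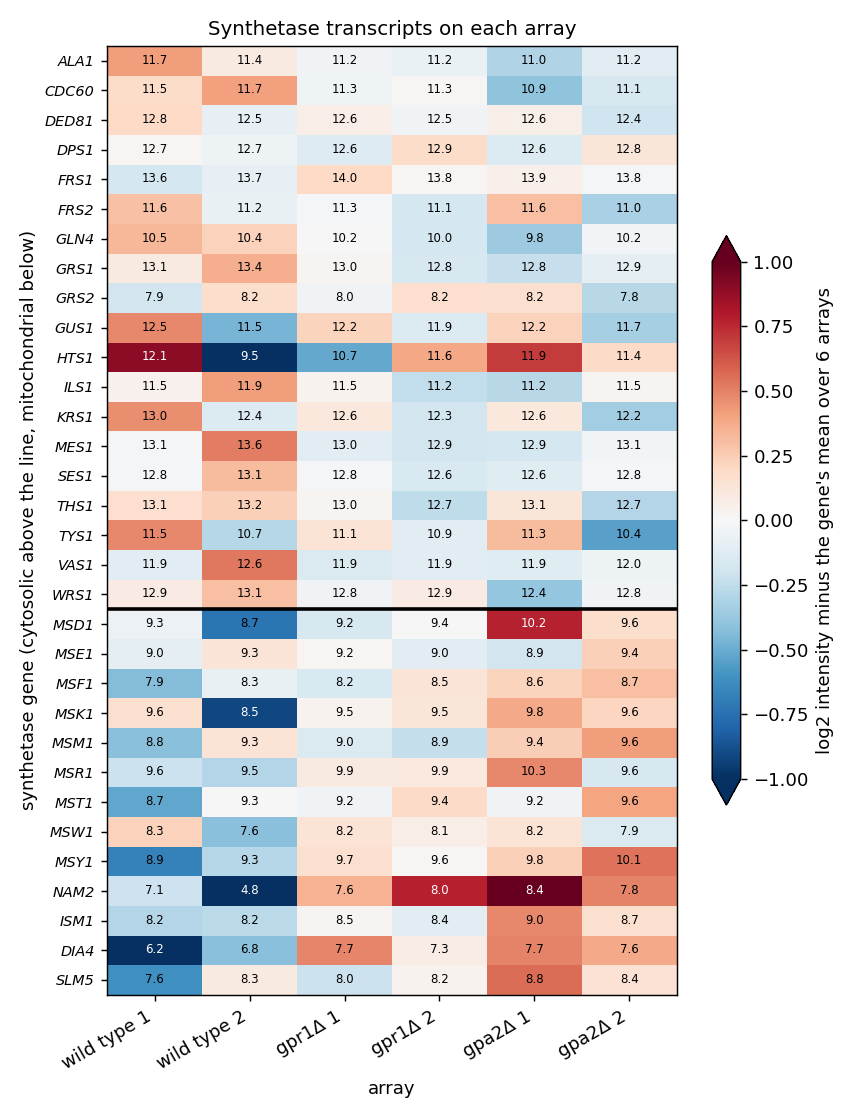
Each row is a synthetase gene and each column an array; the printed number is the log2 intensity, and the colour is that value minus the gene's own mean over the 6 arrays (red above, blue below, colours saturate at 1). Cytosolic genes above the line are mostly redder in the 2 wild-type columns and mitochondrial genes below it mostly redder in the gpa2 columns, while HTS1 and NAM2 show a low value on wild-type array 2 (9.55 and 4.77).

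In gpr1 cells against wild type, 0 of 32 synthetases passed by limma at an adjusted p of 0.05, where 0.230% of all probe sets did. At an unadjusted p under 0.05, 3 read higher, all mitochondrial, and 0 lower, against 3.62% and 3.02% of all probe sets. Of the mitochondrial genes 11 of 13 were above 0, against 49.9% of all probe sets, and in 5 of 13 both gpr1 arrays lay above both wild-type arrays, as in 16.1% of all probe sets. Of the cytosolic genes 14 of 19 were below 0, against 50.1%. In 8 of 19 both gpr1 arrays lay below wild type, as in 16.3% of all probe sets. As each array was left out, the cytosolic genes below 0 numbered from 12 to 16 of 19, and the mitochondrial genes above 0 from 10 to 12 of 13.

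In gpa2 cells against wild type, 0 of 32 passed by limma, where 0.776% of all probe sets did, and the smallest adjusted p was 0.231. At an unadjusted p under 0.05, 5 mitochondrial genes read higher and 1 cytosolic gene lower, against 6.10% and 5.35% of all probe sets. All 13 mitochondrial genes were above 0, as were 47.9% of all probe sets, and in 10 of 13 both gpa2 arrays lay above both wild-type arrays (19.0% of all probe sets). Of the cytosolic genes 16 of 19 were below 0 (52.1% of all probe sets), and in 9 of 19 both gpa2 arrays lay below wild type (20.8% of all probe sets). The cytosolic median was -0.12 without gpa2 array 2. As each array was left out, the cytosolic genes below 0 numbered from 11 to 16 of 19, and the mitochondrial genes above 0 from 12 to 13 of 13. Both comparisons use the same wild-type arrays, so they are not independent of each other.

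**Figure D3:**
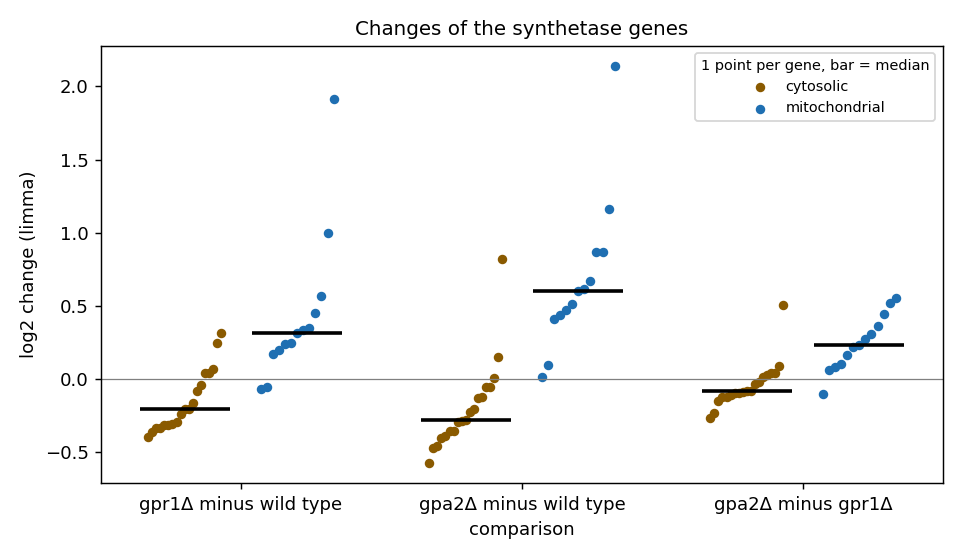
Log2 change of each synthetase gene in the 3 comparisons, 1 point per gene in order of size, cytosolic in brown and mitochondrial in blue, with a bar at the median. The mitochondrial medians were 0.32, 0.60 and 0.23 and the cytosolic medians -0.21, -0.28 and -0.09; the isolated blue point in the first 2 comparisons is NAM2 and the isolated brown point in the last 2 is HTS1.

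Among the mitochondrial enzymes NAM2 had the largest change against wild type in both deletions. NAM2 encodes the mitochondrial leucyl-tRNA synthetase, which is also required for splicing of introns in mitochondrial transcripts. Its log2 level was 7.06 and 4.77 in wild type, 7.61 and 8.04 in gpr1 cells, and 8.35 and 7.76 in gpa2 cells. The wild-type arrays lay below all mutant arrays, and wild-type array 2, with a deposited intensity of 22.6, lay far below the rest. The change was 1.91 ± 0.67 in gpr1 cells (SE, n = 2 in each group; limma adjusted p = 0.598) and 2.14 ± 0.67 in gpa2 cells (limma adjusted p = 0.277). With the floor raised to the pooled 25th percentile, the gpr1 change was 1.19. With wild-type array 2 left out the changes were 0.76 in gpr1 and 0.98 in gpa2 cells, and with array 1 left out 3.16 and 3.39. Each of these fits leaves 1 wild-type array. Mitochondrially encoded transcripts were low on the same array. OLI1, the ring subunit of ATP synthase, had a deposited intensity of 5.6 there and between 1475.1 and 7954.7 elsewhere, and COX1, a subunit of cytochrome oxidase, had 12.5 against 368.1 to 1060.8.

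DIA4, the mitochondrial seryl-tRNA synthetase, takes its name from the invasive growth of its mutants. It read 6.20 and 6.81 in wild type, 7.71 and 7.30 in gpr1 cells, and 7.72 and 7.61 in gpa2 cells. Both wild-type arrays lay below all 4 mutant arrays, and the deletions overlapped. The change was 1.00 ± 0.37 in gpr1 cells (SE, n = 2 in each group; limma adjusted p = 0.675) and 1.16 ± 0.37 in gpa2 cells (limma adjusted p = 0.291), and without any 1 array it stayed between 0.70 and 1.29 and between 0.87 and 1.45. The probe set of DIA4 is dim, with deposited intensities between 104.7 and 301.2.

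MSY1, the mitochondrial tyrosyl-tRNA synthetase, had the smallest p of the 32 genes in gpa2 cells and was chosen after its values were seen, as were MSD1, ISM1 and MSK1. MSY1 read 8.89 and 9.28 in wild type, 9.73 and 9.58 in gpr1 cells, and 9.81 and 10.11 in gpa2 cells. The 3 groups did not overlap, in the order wild type, gpr1, gpa2. The change was 0.57 ± 0.25 in gpr1 cells (SE, n = 2 in each group; limma adjusted p = 0.738) and 0.87 ± 0.25 in gpa2 cells (limma adjusted p = 0.231). ISM1, the isoleucyl enzyme, read 8.22 and 8.24 in wild type, 8.54 and 8.40 in gpr1 cells, and 8.99 and 8.67 in gpa2 cells. Its groups did not overlap either, and its gpa2 change was 0.60 ± 0.26 (limma adjusted p = 0.420). Wild-type array 2 was not low for ISM1 or MSY1.

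MSD1, the aspartyl enzyme, read 9.34 and 8.67 in wild type, 9.24 and 9.40 in gpr1 cells, and 10.17 and 9.57 in gpa2 cells. Only the gpa2 arrays stood clear of wild type, with a change of 0.87 ± 0.31 (SE, n = 2 in each group; limma adjusted p = 0.332) that was 1.22 and 0.53 without wild-type array 1 or 2. MSK1, the lysyl enzyme, read 9.58 and 8.51 in wild type, 9.45 and 9.54 in gpr1 cells, and 9.80 and 9.64 in gpa2 cells. Wild-type array 2 was the lowest of all 6 arrays, and array 1 lay among the mutants. The gpa2 change was 0.67 ± 0.34 (limma adjusted p = 0.491), but 0.13 without wild-type array 2. With array 1 left out it was 1.22.

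The other 7 mitochondrial enzymes, like MSK1, had an unadjusted p above 0.05 in both deletions. SLM5, the asparaginyl enzyme, read 7.60 and 8.31 in wild type, 7.996 and 8.25 in gpr1 cells, and 8.77 and 8.36 in gpa2 cells, so that its gpa2 arrays lay just above wild type. MSF1, a single-chain phenylalanyl enzyme, read 7.94 and 8.29 in wild type, 8.21 and 8.50 in gpr1 cells, and 8.59 and 8.67 in gpa2 cells. MSR1, the arginyl enzyme, read 9.56 and 9.49 in wild type, 9.87 and 9.88 in gpr1 cells, and 10.26 and 9.62 in gpa2 cells. In MSF1 the gpr1 arrays overlapped wild type, and in MSR1 wild type lay below all mutant arrays.

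MSM1, the methionyl enzyme, differed between the deletions more than from wild type in gpr1 cells. It read 8.77 and 9.32 in wild type, 9.04 and 8.94 in gpr1 cells, and 9.42 and 9.60 in gpa2 cells, and its gpr1 change was -0.05 ± 0.26 (SE, n = 2 in each group; limma adjusted p = 0.998), or 0.22 without wild-type array 2. MST1, the threonyl enzyme, read 8.72 and 9.25 in wild type, 9.21 and 9.44 in gpr1 cells, and 9.21 and 9.64 in gpa2 cells, and all groups overlapped. Against wild type, MSE1 and MSW1 had the 2 smallest gpa2 changes of the mitochondrial genes. MSE1, the glutamyl enzyme, read 9.04 and 9.26 in wild type, 9.15 and 9.01 in gpr1 cells, and 8.95 and 9.37 in gpa2 cells, with a gpr1 change of -0.07 ± 0.25 (limma adjusted p = 0.998). MSW1, the tryptophanyl enzyme, read 8.28 and 7.63 in wild type, 8.19 and 8.12 in gpr1 cells, and 8.19 and 7.91 in gpa2 cells.

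Among the cytosolic enzymes CDC60, the leucyl-tRNA synthetase, known also as a sensor of leucine for the TORC1 growth pathway, read lowest in gpa2 cells relative to wild type. Its levels were 11.49 and 11.72 in wild type, 11.26 and 11.32 in gpr1 cells, and 10.90 and 11.15 in gpa2 cells. The 3 groups did not overlap, in descending order, and this was the 1 cytosolic gene with an unadjusted p under 0.05. The gpa2 change was -0.58 ± 0.21 (SE, n = 2 in each group; limma adjusted p = 0.341), and it stayed between -0.70 and -0.45 without any 1 array.

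ALA1, the alanyl enzyme for both compartments, read 11.69 and 11.37 in wild type, 11.24 and 11.21 in gpr1 cells, and 10.98 and 11.16 in gpa2 cells. Its groups did not overlap, again in descending order, and its gpa2 change was -0.46 ± 0.21 (SE, n = 2 in each group; limma adjusted p = 0.461). GLN4, the glutaminyl enzyme, has no mitochondrial partner, since mitochondria make this charged tRNA by another route. It read 10.51 and 10.41 in wild type, 10.19 and 10.01 in gpr1 cells, and 9.82 and 10.16 in gpa2 cells. Wild type lay above all mutant arrays, and the changes were -0.36 ± 0.22 in gpr1 and -0.47 ± 0.22 in gpa2 cells (limma adjusted p = 0.900 and 0.476).

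MES1, the methionyl enzyme, which is held in a complex with the glutamyl enzyme by the tRNA-binding cofactor Arc1, read 13.08 and 13.60 in wild type, 12.98 and 12.90 in gpr1 cells, and 12.91 and 13.06 in gpa2 cells. Wild type lay above all mutant arrays, narrowly for array 1, and the gpr1 change was -0.40 ± 0.22 (SE, n = 2 in each group; limma adjusted p = 0.855), or -0.14 without wild-type array 2 and -0.69 with array 1 left out. VAS1, the valyl enzyme for both compartments, read 11.94 and 12.57 in wild type, 11.90 and 11.94 in gpr1 cells, and 11.92 and 11.99 in gpa2 cells. Wild-type array 1 lay among the mutant arrays, and the gpr1 change of -0.34 ± 0.24 (limma adjusted p = 0.917) was -0.02 without wild-type array 2 and -0.66 with array 1 left out.

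The same placing of wild type above all mutant arrays held for GRS1 (glycyl, both compartments), ILS1 (isoleucyl), SES1 (seryl) and THS1 (threonyl). GRS1 read 13.09 and 13.36 in wild type and between 12.77 and 13.03 on the mutant arrays. ILS1 read 11.51 and 11.89 in wild type, and its highest mutant array, gpr1 array 1, read 11.50. In SES1 the gap was as narrow, with a lower wild-type array at 12.76 and a highest mutant array at 12.76, which differ only in later decimals. WRS1, the tryptophanyl enzyme, read 12.89 and 13.11 in wild type, 12.78 and 12.89 in gpr1 cells, and 12.42 and 12.78 in gpa2 cells, so that only the gpa2 arrays stood below wild type.

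FRS1 and HTS1 ran the other way. FRS1, the beta subunit of cytosolic phenylalanyl-tRNA synthetase, read 13.63 and 13.72 in wild type, 14.01 and 13.83 in gpr1 cells, and 13.86 and 13.80 in gpa2 cells. Both wild-type arrays lay below all mutant arrays, and the changes were 0.24 ± 0.18 and 0.15 ± 0.18 (SE, n = 2 in each group; limma adjusted p = 0.923 and 0.794). FRS2, the alpha subunit of the same enzyme, read 11.60 and 11.23 in wild type, 11.28 and 11.13 in gpr1 cells, and 11.60 and 10.98 in gpa2 cells, with all groups overlapping. HTS1, the histidyl enzyme for both compartments, read 12.10 and 9.55 in wild type, 10.69 and 11.59 in gpr1 cells, and 11.90 and 11.39 in gpa2 cells. Its wild-type arrays bracketed all others, and its sign turned with them. The gpa2 change of 0.82 ± 0.69 (limma adjusted p = 0.693) was -0.45 without wild-type array 2 and 2.09 with array 1 left out. The gpr1 change of 0.32 ± 0.69 (limma adjusted p = 0.994) was -0.96 without wild-type array 2.

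GUS1 (glutamyl), KRS1 (lysyl) and TYS1 (tyrosyl) varied within groups, and their groups overlapped. GUS1 read 12.48 and 11.54 in wild type, 12.22 and 11.87 in gpr1 cells, and 12.23 and 11.67 in gpa2 cells. TYS1 read 11.46 and 10.69 in wild type, 11.12 and 10.87 in gpr1 cells, and 11.30 and 10.44 in gpa2 cells. Array 1 was the higher of each group in these 3 genes. DED81 (asparaginyl), DPS1 (aspartyl) and GRS2, a copy of the glycyl enzyme that arose by duplication, overlapped in all groups. GRS2 read 7.86 and 8.22 in wild type, 8.01 and 8.21 in gpr1 cells, and 8.21 and 7.76 in gpa2 cells. GRS1 and GRS2 are paralogues, and whether their probe sets also read each other's transcript was not tested.

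The enzymes for the same amino acid were then set side by side, in 14 pairs that include YDR341C, the cytosolic arginyl enzyme, which lies outside the 32 genes, and count MSF1 against both FRS1 and FRS2. In gpr1 cells the mitochondrial change lay above the cytosolic one in 12 of 14 pairs, with a median difference of 0.51, and in gpa2 cells in 14 of 14, with a median of 0.84. The leucine pair differed most in gpa2 cells, by 2.72 (NAM2 minus CDC60), and by 1.44 without wild-type array 2. The serine pair (DIA4 minus SES1) differed by 1.38, the tyrosine pair (MSY1 minus TYS1) by 1.08, the isoleucine pair (ISM1 minus ILS1) by 0.96 and the lysine pair (MSK1 minus KRS1) by 0.96. The tyrosine pair depended on single arrays, running from 0.50 to 1.66 as each was left out. The glutamate pair (MSE1 minus GUS1) was the smallest at 0.07, and it was -0.52 without wild-type array 1 and -0.42 without gpa2 array 2.

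In gpr1 cells the pairs below 0 were glutamate at -0.10 and MSF1 against FRS1 at -0.0043. Both turned sign with single arrays, glutamate running from -0.69 to 0.48 and MSF1 minus FRS1 from -0.22 to 0.22, and glutamate was 0.0103 with median centring. The asparagine pair (SLM5 minus DED81) read 0.21 there, but -0.29 without wild-type array 1. The aspartate and tryptophan pairs, at 0.27 and 0.36, were -0.03 and -0.07 without wild-type array 2. In the gpr1 comparison the serine pair stood at 1.24 and the leucine pair at 2.22, the latter between 0.95 and 3.59 with 1 array left out. The tyrosine pair read 0.65 there, but 0.07 with wild-type array 1 left out.

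**Figure D4:**
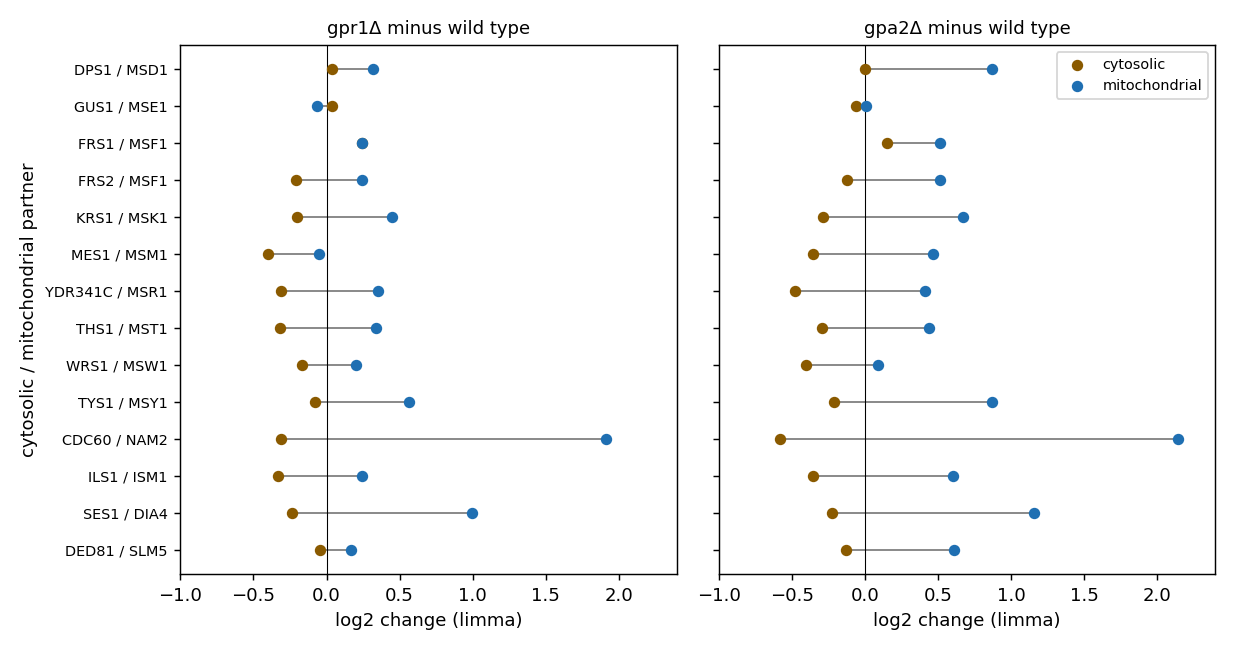
Log2 change against wild type of the cytosolic (brown) and mitochondrial (blue) enzyme for each amino acid, in gpr1 (left) and gpa2 deletion (right), with a line joining partners. The blue point lies to the right in 12 of 14 pairs on the left and in 14 of 14 on the right, most widely for CDC60 and NAM2.

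Between the deletions, 0 of 32 synthetases passed by limma in gpa2 minus gpr1, where 0.0288% of all probe sets did, and 0 had an unadjusted p under 0.05 (1.27% of all probe sets higher and 1.08% lower). The mitochondrial median was 0.23, with 12 of 13 above 0 (47.9% of all probe sets) and 7 of 13 with both gpa2 arrays above both gpr1 arrays (15.9% of all probe sets). The cytosolic median was -0.09, with 13 of 19 below 0 (52.1% of all probe sets) and 2 of 19, ALA1 and CDC60, with both gpa2 arrays below both gpr1 arrays (15.0% of all probe sets). MSD1 at 0.55 ± 0.31 and MSM1 at 0.52 ± 0.26 read highest (SE, n = 2 in each group; limma adjusted p = 1 for each), MSW1 read -0.11 ± 0.31, and CDC60 (-0.26 ± 0.21), WRS1 (-0.24 ± 0.21) and ALA1 (-0.15 ± 0.21) were the lowest. Without gpa2 array 1 these values were 0.26 for MSD1, -0.14 for CDC60, -0.0564 for WRS1 and -0.0582 for ALA1. At the upper end of the cytosolic genes stood HTS1 (0.51 ± 0.69), FRS2 (0.09 ± 0.26) and MES1 (0.04 ± 0.22). The difference between the mitochondrial and cytosolic medians was 0.32, and it was 0.17 without gpr1 array 1, where the cytosolic median was 0.0032. Without that array 9 of 19 cytosolic genes were below 0 and 11 of 13 mitochondrial genes above it. Group means ran in rising order from wild type over gpr1 to gpa2 in 10 of 13 mitochondrial genes, as in 23.0% of all probe sets, and in falling order in 9 of 19 cytosolic genes, as in 25.2%.

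By structural class the 8 cytosolic class I enzymes (such as CDC60, MES1 and VAS1) had medians of -0.32 in gpr1 and -0.36 in gpa2 cells, with 8 of 8 below 0 in the latter. The 11 cytosolic class II enzymes (such as DPS1, SES1 and HTS1) had medians of -0.20 and -0.13, with 8 of 11 below 0 in gpa2 cells. In mitochondria the 7 class I and 6 class II enzymes had gpa2 medians of 0.47 and 0.64. The 4 genes that serve both compartments followed the cytosolic side apart from HTS1, with ALA1, GRS1 and VAS1 below 0 in both deletions and a list median of -0.30 and -0.34.

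Synthetases outside the 32 genes and their partners were read beside them. YDR341C, YHR020W, the cytosolic prolyl enzyme, and YNL247W, the cytosolic cysteinyl enzyme, complete the cytosolic set. YHR020W read 12.17 and 11.89 in wild type, 11.63 and 11.23 in gpr1 cells, and 11.84 and 11.16 in gpa2 cells, with both wild-type arrays above all mutant arrays. Its changes were -0.60 ± 0.28 and -0.53 ± 0.28 (SE, n = 2 in each group; limma adjusted p = 0.779 and 0.506), the latter -0.19 without gpa2 array 2 and -0.87 without gpa2 array 1. YDR341C read 13.75 and 14.02 in wild type and between 13.29 and 13.59 on the mutant arrays, with changes of -0.31 ± 0.19 and -0.48 ± 0.19 (limma adjusted p = 0.900 and 0.408), and YNL247W had changes of -0.36 ± 0.22 and -0.30 ± 0.22 (limma adjusted p = 0.900 and 0.638). The gpr1 change of YDR341C was -0.17 without wild-type array 2, and with wild-type array 1 left out the changes of YNL247W were -0.22 and -0.16. AIM10, which encodes a likely mitochondrial prolyl enzyme, read 9.18 and 8.02 on wild-type arrays 1 and 2 and between 8.64 and 9.30 on the mutant arrays, all of them overlapping. ARC1, the cofactor of MES1 and GUS1, read 12.58 and 13.10 in wild type and between 12.74 and 12.89 on the mutant arrays, which all lay between them. HER2, PET112 and GTF1, genes of the mitochondrial route to glutaminyl-tRNA, were also read. Their changes were -0.21, 0.30 and -0.19 in gpr1 cells and 0.0006, 0.13 and 0.29 in gpa2 cells. The medians of these 8 genes outside the 32 were -0.20 and -0.0004.

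Of the genes around charging, none passed the test in either deletion. The 16 factors of mitochondrial translation (elongation factors and activators of single messages) had medians of 0.27 in gpr1 and 0.30 in gpa2 cells, with 16 of 16 and 13 of 16 above 0, against 49.9% and 47.9% of all probe sets. At an unadjusted p under 0.05, 0 and 2 of them read higher, against 3.62% and 6.10%. In gpa2 cells MEF2, a mitochondrial ribosome-recycling factor, read 0.92 ± 0.31 and IFM1, the mitochondrial initiation factor, 0.79 ± 0.27 (SE, n = 2 in each group; limma adjusted p = 0.317 and 0.322). The 8 tested cytosolic translation factors, of 13 listed, had medians of 0.11 and -0.10. The 19 genes of tRNA maturation and export (RNase P, tRNA splicing and nuclear export) had medians of -0.06 and -0.29, with 14 and 17 of 19 below 0, against 50.1% and 52.1% of all probe sets. At an unadjusted p under 0.05, 0 and 2 of them read lower, against 3.02% and 5.35%. Of these, POP7, an RNase P subunit, read -0.62 ± 0.24 and TPT1, the last enzyme of tRNA splicing, -0.59 ± 0.24 in gpa2 cells (limma adjusted p = 0.380 and 0.411). The 5 genes of general amino acid control, the pathway that senses uncharged tRNA, had medians of -0.13 and -0.14, and GCN4, its transcription factor, read 0.26 and 0.12. Of 8 mitochondrially encoded genes only OLI1 and COX1 were bright enough to be tested.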

How the data were processed

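Per the labels, each of the 6 samples was a single-colour hybridisation of total RNA, and the deposited value table gives 1 intensity per probe set. The sources used here do not state the authors' summary method or scaling. Groups and replicate numbers came from the sample titles. Columns of other samples numbered 0.

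Array medians spanned 1.32 on the log2 scale, above a limit of 0.2, so intensities were quantile normalised, raised to the pooled 10th percentile (8.94) and put on the log2 scale. Of 9335 probe sets, 60 controls and 2319 with a mean under the 25th percentile were left out, and 6956 entered limma 3.58.1 (R 4.3.3) in 1 fit of the 3 group means, with 3 residual degrees of freedom, eBayes with a trend and Benjamini-Hochberg adjustment over all of them. With 2 arrays per group, precision is limited by their number. The procedure was also run on simulated data with independent noise for each probe set. Those data hold no effect shared across an array, so they cannot show how the procedure handles one.

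Genes were named by probe annotation, and all 32 matched the RefSeq R64 gene table. Changes are printed for the 3 highest and 3 lowest cytosolic and 2 highest and 2 lowest mitochondrial genes of a comparison, leaving out a gene whose sign opposes its end, for pairs by amino acid, and for up to 2 genes of each other list. Any further gene was picked once its values were known. The genes and lists were chosen with earlier results of these data known. Promoter motifs and sequences were planned but not analysed here. Alternatives were other scalings, floors, filters and moderation, a replicate block, only the groups compared, the mean of a gene's probe sets, and leaving out each array.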

Additional observations from a re-analysis of the deposited data

How the results depend on the processing

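The call of 0 synthetases by limma held under every alternative except leaving out wild-type array 1. Each fit without an array leaves 1 array in a group and so holds no spread between arrays of that group. The calls of these fits are not given. On the values as deposited the median of all probe sets was -0.32 (gpr1), -1.02 (gpa2) and -0.70 (gpa2 minus gpr1), and the cytosolic medians were -0.58, -1.27 and -0.74 and the mitochondrial ones 0.0353, -0.42 and -0.46; relative to all probe sets the latter were 0.35, 0.60 and 0.23. The difference between the compartments' medians was 0.62 (gpr1) and 0.85 (gpa2) both as deposited and with median centring, and 0.82 (gpa2) with the filter at the 50th percentile, where fewer pairs were left and the mitochondrial change was the higher in 7 of 8 (gpr1), 8 of 8 (gpa2) and 8 of 8 (gpa2 minus gpr1). Without 1 array the cytosolic medians ran from -0.29 to -0.14, from -0.29 to -0.12 and from -0.17 to 0.0032 in the 3 comparisons, the mitochondrial ones from 0.24 to 0.38, 0.45 to 0.73 and 0.18 to 0.30, and their difference from 0.40 to 0.67, 0.74 to 0.95 and 0.17 to 0.43. With the replicate number as a block, 0 synthetases passed, with a smallest adjusted p of 0.0948 in the gpa2 comparison, and the medians were as before (0.32 and 0.60 for the mitochondrial genes). Arrays with the same number deviated together over all probe sets (r = 0.203, 0.404 and 0.209 between the groups), but over the 32 genes r was -0.445, 0.555 and -0.071, and the labels do not say that the numbers mark a shared batch.

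As deposited, where all probe sets shifted, all 19 cytosolic genes were below 0 in the 3 comparisons and 7, 2 and 0 of 13 mitochondrial genes were above 0. Among the synthetases whose changes are printed, the signs that turned in the gpr1 comparison were FRS1 (-0.0546), GRS2 (-0.25) and HTS1 (-0.0158). In the gpa2 comparison they were DPS1 (-1.004), FRS1 (-0.57), HTS1 (-0.23), MSY1 (-0.14), MSD1 (-0.15), ISM1 (-0.39) and MSK1 (-0.34). Between the deletions they were FRS2 (-0.62), HTS1 (-0.22), MES1 (-0.61), MSD1 (-0.19) and MSM1 (-0.20), where all lay above the median of all probe sets. The other genes with a printed change, among them MEF2, IFM1, POP7, TPT1, GCN4, HER2, PET112 and GTF1, were not read under the alternatives. Whether their signs turned is not given. DPS1 was -0.0165 in the gpa2 comparison with median centring. Without 1 array the ranges were, in the gpr1 comparison, -0.12 to 0.25 for GRS2, -0.96 to 1.59 for HTS1, -0.18 to 0.042 for MSE1 and -0.33 to 0.22 for MSM1; in the gpa2 comparison -0.12 to 0.13 for DPS1 and -0.45 to 2.09 for HTS1; and between the deletions -0.22 to 0.40 for FRS2, -0.0319 to 0.12 for MES1 and -0.25 to 0.0336 for MSW1. The cause of these turns was not tested.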
